A study of Mus musculus with 108 samples.

Results

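The mouse genes through which the cytokines IL-3 and IL-6 reach the nucleus were examined in a reporter screen of open chromatin: the receptor chains Csf2rb, Csf2rb2, Il6ra and Il6st, the transcription factors Stat5a, Stat5b and Stat3, and the feedback inhibitor Socs3. Each gene was given a window of its GENCODE gene body in the mm10 genome plus 100 kb on each side, and every sorted or plasmid fragment that overlapped a window was counted for it. The genes were 8 of 21911 protein-coding genes given such windows, and their windows held 146 of the 76779 sites made by merging overlapping sorted fragments of the same class. Of these sites 110 were distal and 36 lay at promoters, within 1.5 kb of an annotated transcription start. The gene bodies were chr15:78325752-78353847 for Csf2rb and chr15:78282507-78305721 for Csf2rb2, chr3:89864059-89913196 for Il6ra, chr13:112464070-112510086 for Il6st and chr11:117966079-117970047 for Socs3. Those of the STAT genes were chr11:100780731-100850724 for Stat5b, chr11:100859351-100885169 for Stat5a and chr11:100885098-100939540 for Stat3. Windows of Csf2rb and Csf2rb2 overlapped on chromosome 15, as did those of Stat5b, Stat5a and Stat3 on chromosome 11, so 40 sites lay in more than 1 window and were assigned to the member with the nearest start. The nearest annotated transcript start was that of the assigned member for 35 of the 146 sites. At the rest a start of another gene lay closer. That gene was mostly a neighbour but in places another member, such as Stat3 for a site assigned to Stat5a.

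Accessible DNA of 5 stages of blood differentiation was cut with Tn5 transposase and cloned upstream of the HSP68 minimal promoter and a Venus-YFP reporter, first into a pDONR vector and then into the pSKB targeting vector. HM-1, a line of mouse ES cells whose Hprt gene does not function, received the reporters by homologous recombination at Hprt, so every sorted group shared 1 genetic background and 1 integration site. Cells were embryonic stem cells (ES), FLK1+ hemangioblasts from embryoid bodies (HB), KIT+ TIE2+ CD41- first hemogenic endothelium (HE1), KIT+ TIE2+ CD41+ second hemogenic endothelium (HE2) and KIT+ TIE2- CD41+ hematopoietic progenitors (HP), all untreated other than by the culture media. ES medium contained LIF, a cytokine that signals through the Il6st protein, and the blast culture from which HE1, HE2 and HP were taken contained IL-6 and VEGF. Each stage was sorted by YFP brightness into 4 gates (Negative, Low, Medium, High), with Medium and High collected together in replicate 5, which gave 95 sorted libraries. Beside them stood 10 plasmid lists, a pDONR and a pSKB list for each stage, and 3 libraries amplified by the same PCR from HM-1 cells as controls.

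The sorted lists held 504 to 131091 distinct fragments a library and gave no read numbers. A value here is thus a number of listed DNA fragments and not a reporter output. Fragments are distinct within a set, but a total over sets counts a fragment again in each set that listed it. All libraries together listed 2288814 fragments, of which 1177237 were distinct. Low, Medium and High fragments of a stage and replicate were joined into a positive set, giving 25 positive and 25 Negative sets with 1598619 and 524722 fragments in all, and levels are given as fragments per 10000 fragments of the set. Replicates 1 and 2 were much larger than the rest and held between 91.9 and 94.8% of the positive fragments of each member window. Of the HE1 libraries, Negative replicate 1 shared 78.5% of the smaller list with Medium replicate 2, and Negative replicate 3 shared 83.0% with Low replicate 4, so results were also computed without these 4 libraries. The labels do not say whether replicates were separate cultures, and the p-values therefore measure only the spread between these sorted samples. RNA was not measured in these libraries, so the identity of the sorted cells could not be checked against expressed marker genes.

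Csf2rb is the beta chain shared by the receptors for IL-3, IL-5 and GM-CSF, and Csf2rb2 is its mouse paralog, which serves the IL-3 receptor alone. Il6ra binds IL-6 and Il6st (gp130) carries the signal across the membrane for the whole IL-6 family. Receptor-bound JAK kinases phosphorylate the STAT proteins, mainly STAT5A and STAT5B after IL-3 and STAT3 after IL-6 or LIF, which enter the nucleus and bind sites of the form TTCNNNGAA. Socs3 is a direct STAT3 target whose protein binds gp130 and the JAKs and ends the signal. In ES cells the LIF and STAT3 route maintains self-renewal, while IL-3 and IL-6 are classical growth factors of blood progenitors.

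The windows of the intracellular members had more positive fragments than those of the receptors, and the Socs3 window had the most for its length. Per 10000 positive fragments and per 100 kb of window, the level was 3.12 for Socs3, 2.04 for Stat5b, 1.97 for Stat3 and 1.95 for Stat5a, against 1.35 for Il6ra, 0.891 for Csf2rb, 0.595 for Il6st and 0.429 for Csf2rb2. The 3 STAT values share many of the same fragments and are not independent. In numbers, the Socs3 window held 1018 positive and 359 Negative fragments and had more positive fragments than 92.8% of all windows, whereas Csf2rb2, with 153 and 52, had more than 34.2%. The median over all windows was 281 positive fragments. Csf2rb held 325 positive and 121 Negative fragments, Il6ra 537 and 175, Il6st 234 and 85, Stat5a 703 and 239, Stat5b 881 and 311, and Stat3 803 and 270. The plasmid lists held a similar order. In the HE1 pDONR list, the longest, levels per 1000000 fragments were 612 for Socs3, 540 for Stat5b, 478 for Stat3 and 458 for Stat5a. The receptors had 323 for Il6ra, 216 for Csf2rb, 127 for Il6st and 113 for Csf2rb2. Other lists departed in places, such as Stat5b above Socs3 in HP (629 and 559) and Il6ra above Stat3 in ES (317 and 300). Whether sorting changed the order of windows was not tested, so this order is not read as regulatory activity.

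**Figure D1:**
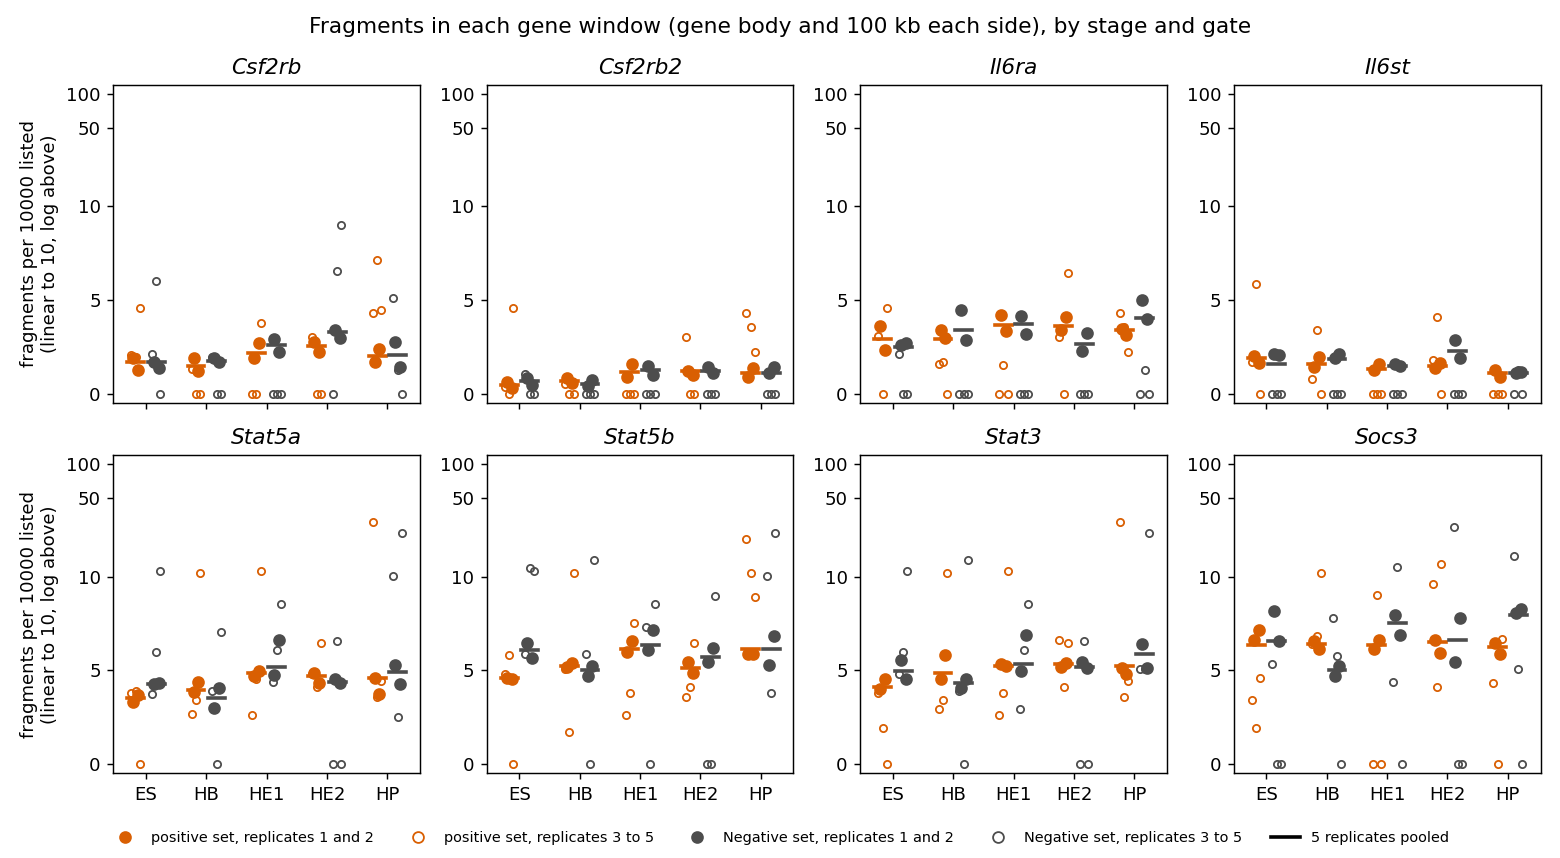
Positive and Negative levels of the member windows, as fragments per 10000 listed fragments, by stage and replicate, on an axis that is linear to 10 and logarithmic above. Bars are the 5 replicates pooled, filled points replicates 1 and 2 and open points the rest. Replicates 3 to 5 range from 0 to 30.3 because few fragments decide them.

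No member window was called different between stages. In the positive sets of Socs3 the pooled level was 6.34, 6.41, 6.33, 6.51 and 6.23 from ES to HP. For Csf2rb2 it was 0.459, 0.658, 1.14, 1.22 and 1.08, with replicate 1 at 0.6, 0.821, 0.87, 1.23 and 0.879 and replicate 2 at 0.29, 0.574, 1.57, 1.00 and 1.35 in the same order. In both large replicates the 3 later stages of Csf2rb2 lay above ES and HB. The means of 5 replicates did not follow this order, at 1.16, 0.386, 0.488, 1.05 and 2.47 from ES to HP. A site beside Ncf4, described below, gave 17, 9 and 7 of the window's 51, 43 and 29 positive fragments in HE1, HE2 and HP. The share of all windows with such an order was not counted. Limma on log2 levels with 1 added called 13 of 18967 windows between stages after Benjamini-Hochberg adjustment (0.0685%) and 0 of the 8 members, with 617 windows and 0 members at an unadjusted p under 0.05. The difference between the highest and lowest stage was 0.94 to 1.43 on the log2 scale, the adjusted p was 1.0 for every member, and the lowest unadjusted p was 0.0749 for Csf2rb2. EdgeR's quasi-likelihood test on the fragment numbers called 1223 windows (6.45%) and again 0 members, and Csf2rb2 came nearest with a range of 1.42 and an adjusted p of 0.0612. In the Negative sets limma called 0 of 18271 windows (0%), with 536 windows and 0 members at an unadjusted p under 0.05, and edgeR called 226 (1.24%), none of them a member.

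Positive and Negative sets held similar levels of the member windows. The pooled level was 6.37 in positive and 6.84 in Negative sets for Socs3, 5.02 and 5.15 for Stat3, 5.51 and 5.93 for Stat5b, 4.4 and 4.55 for Stat5a, 3.36 and 3.34 for Il6ra, 1.46 and 1.62 for Il6st, 2.03 and 2.31 for Csf2rb, and 0.957 and 0.991 for Csf2rb2. For limma across the stages, the sets of each replicate were averaged over the stages, which gave 5 positive against 5 Negative means. Positive minus Negative was 0.68 ± 0.45 for Il6ra and 0.41 ± 0.26 for Csf2rb2 on the log2 scale (SE, 5 replicate means of each kind). It was between 0.02 and 0.33 for the others. None of 18659 windows was called (0%), with 194 at an unadjusted p under 0.05, and the adjusted p of every member was 1.0. Replicates 1 and 2 alone gave differences from -0.17 to -0.0026 for the 8 members, so the sign of each difference turned when the small replicates were left out. Over all windows the median difference was 0.15 in limma and 0.00 in edgeR.

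Pooled levels changed in 1 direction along the gates in 1 of the 8 windows, that of Csf2rb, and there they fell as brightness rose. The share of all windows with such an order was not counted, so no trend is read from this window. Csf2rb had 1.96 fragments per 10000 in High, 1.99 in Medium, 2.23 in Low and 2.31 in Negative libraries. In the same order of gates Socs3 had 5.85, 6.9, 6.34 and 6.84, Stat3 4.68, 5.44, 4.7 and 5.15, and Il6st 1.57, 1.37, 1.52 and 1.62. Medium and High against Low gave differences from -0.23 for Socs3 to 0.77 for Stat3 on the log2 scale, from replicate means over stages. With replicates pooled, Stat3 had 4.1, 4.69, 5.6, 5.41 and 5.08 in Medium and High from ES to HP. In Low it had 4.18, 5.26, 3.76, 5.21 and 5.5, and in HE2 only 2 of 5 Low replicates held a fragment of the window. None of 18549 windows was called by limma or edgeR (0%), and 76 windows but 0 members had an unadjusted limma p under 0.05. Within single stages limma and edgeR also called no window (0%) between positive and Negative sets, with 396, 454, 196, 246 and 336 windows from ES to HP at an unadjusted limma p under 0.05. The lowest member p in these stages was 0.0961 for Csf2rb2 in HP, where positive minus Negative was 1.22 ± 0.73 (SE, 5 replicates of each, adjusted limma p of 1.0). With replicates 1 and 2 only it was -0.11, the positive level being 0.879 and 1.35 and the Negative level 1.11 and 1.42 in these replicates. A change of the gate difference between stages was called for 0 of 18659 windows (0%), with 403 windows and 0 members at an unadjusted p under 0.05.

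At Csf2rb the recovered fragments lay away from the gene's start. The start, chr15:78325752 on the plus strand, had 6 pSKB fragments within 1.5 kb and a single sorted fragment, in a Negative library. That of Csf2rb2, chr15:78305721 on the minus strand, had 3 pSKB fragments and 0 sorted fragments. Few plasmid fragments at a start were common, since 26.5% of the 21911 starts had fewer than 10. Of the 28027 stretches of 70 bases in the Csf2rb gene body, 7.36% also occurred in Csf2rb2, so fragments of the gene bodies could in part be placed at either copy or removed by the mapping filter.

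The site nearest upstream of Csf2rb was chr15:78320510-78321284, intergenic and at -4.86 kb from the start. It had 25 positive fragments in 12 positive sets and 9 Negative fragments. Its positive fragments numbered 3, 1, 1, 0 and 0 in replicates 1 to 5 of ES, 2, 1, 2, 0 and 0 in HB, 4, 4, 0, 0 and 0 in HE1, 3, 1, 2, 0 and 0 in HE2, and 1, 0, 0, 0 and 0 in HP. All stages therefore held it, at low numbers. A coding exon within Csf2rb, chosen after its values were seen, at chr15:78339892 held 32 positive and 11 Negative fragments.

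A site beside Ncf4, a gene for a subunit of the phagocyte NADPH oxidase, was absent from the early stages. It lay at chr15:78267776-78268254, intergenic and 37.7 kb beyond the start of Csf2rb2 in the direction of transcription. It had 17 positive fragments in HE1, 9 in HE2 and 7 in HP, with 7, 2 and 2 Negative fragments, and 0 of either kind in ES and HB. By replicate 1 to 5 the positive fragments were 6, 11, 0, 0 and 0 in HE1, 6, 2, 1, 0 and 0 in HE2, and 2, 3, 0, 1 and 1 in HP. The pDONR lists held 0, 0.803, 9.51, 7.06 and 4.53 fragments there per 1000000 listed, from ES to HP. The 300 bases around the most covered base of both Csf2rb region sites are shown on the plus strand, the former as the site closest upstream of Csf2rb and the latter as the distal site with the most positive fragments among those without ES and HB fragments on chromosome 15. Capitals mark the STAT letters TTCNNNGAA and an ETS motif upstream of Csf2rb, and an AP-1 motif and the GATA letters AGATAA beside Ncf4, on either strand.
Csf2rb upstream, chr15:78320899-78321198: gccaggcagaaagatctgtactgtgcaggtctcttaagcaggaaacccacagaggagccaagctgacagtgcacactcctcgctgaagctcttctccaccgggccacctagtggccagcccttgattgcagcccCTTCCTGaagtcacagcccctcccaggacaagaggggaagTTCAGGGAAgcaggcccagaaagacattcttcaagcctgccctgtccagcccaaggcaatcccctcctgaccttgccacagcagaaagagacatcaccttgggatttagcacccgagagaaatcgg
Ncf4 side, chr15:78267880-78268179: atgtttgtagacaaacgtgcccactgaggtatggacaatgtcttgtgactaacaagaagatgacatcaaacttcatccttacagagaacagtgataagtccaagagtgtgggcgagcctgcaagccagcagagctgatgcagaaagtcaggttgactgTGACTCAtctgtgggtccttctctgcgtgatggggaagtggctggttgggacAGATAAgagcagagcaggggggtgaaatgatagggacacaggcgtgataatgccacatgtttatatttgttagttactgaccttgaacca

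The IL-6 receptor chains differed in how their fragments were spread. The Il6st window held 7 sites, and its start site, chr13:112463469-112464501 overlapping an untranslated region of the gene, alone gave 188 of the 234 positive fragments and 69 of the 85 Negative ones. Its positive fragments in replicates 1 to 5 were 16, 14, 3, 3 and 0 in ES, 15, 22, 3, 2 and 0 in HB, 22, 27, 0, 0 and 0 in HE1, 21, 16, 2, 1 and 0 in HE2, and 18, 3, 0, 0 and 0 in HP. It had more positive fragments than 98.4% of all sites. The Il6ra window held 33 sites, of which the start site, chr3:89912613-89913534, gave 56 of 537 positive fragments (10, 10, 16, 13 and 7 from ES to HP). More fragments, 93, came from the promoter of the neighbour Ube2q1, which encodes a ubiquitin-conjugating enzyme, and 42 from the largest of several promoter sites of Atp8b2, a lipid flippase gene.

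Several Il6ra sites were missing at particular stages. The intronic She site chr3:89835228-89835869, 77.6 kb from the Il6ra start, had 0 positive fragments in ES and 12, 15, 12 and 8 in HB, HE1, HE2 and HP. Another She intron site, chr3:89853520-89854267, had 0 in ES and HB and 14, 8 and 3 in the later stages. The She promoter site chr3:89831022-89831885 had 7 positive fragments in HB, 10 in HE2 and 0 in ES, HE1 and HP, although its pDONR level lay between 8.33 (HP) and 13.6 (HE1) fragments per 1000000 at every stage. She encodes an adaptor protein with an SH2 domain, and none of these sites has been tied to a target gene by these data.

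The STAT genes lie side by side on chromosome 11, with Stat5b and Stat3 on the minus strand and Stat5a between them on the plus strand. Stat5a had the most start fragments, 159 positive and 54 Negative at chr11:100859820-100860946 (positive 25, 27, 43, 39 and 25 from ES to HP). The Stat5b start site, chr11:100850046-100850979, had 80 and 20 (positive 8, 15, 29, 19 and 9). Within 1.5 kb of each start, sorted fragments numbered 0.411 per pSKB fragment for Stat5a and 0.236 for Stat5b, where the median over 11072 starts with at least 100 pSKB fragments was 0.25 and the quartiles were 0.179 and 0.316. A Stat3 coding exon, chr11:100893341-100894093, had 43 positive fragments in 16 of 25 sets and 18 Negative fragments.

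An intron of Stat3 held the site with the most fragments among those missing at a stage. It lay at chr11:100891416-100892232, 32.5 kb from the Stat5a start, the nearest gene start of a member. An annotated transcript start of Stat3 lay closer. Positive fragments in replicates 1 to 5 were 10, 9, 0, 0 and 0 in HB, 18, 14, 0, 0 and 0 in HE1, 13, 11, 3, 0 and 0 in HE2, 19, 5, 0, 0 and 0 in HP, and 0 in every ES replicate. Negative fragments numbered 9, 10, 7 and 9 in HB, HE1, HE2 and HP and 0 in ES, where 25.1 fragments of both kinds were expected from the sizes of the lists. The pDONR level was 1.77 fragments per 1000000 in ES and 20.2, 34.4, 39.4 and 35.1 in HB, HE1, HE2 and HP.

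In an intron of Cavin1, a gene for a coat protein of caveolae, the site chr11:100965551-100966373 lay at -26.4 kb, upstream of the Stat3 start. It had 23, 20 and 11 positive fragments in HE1, HE2 and HP, 14, 1 and 3 Negative fragments, and 0 of both in ES and HB. Its pDONR level was 0.53, 1.61, 25.8, 19.6 and 4.67 fragments per 1000000 from ES to HP. The opposite order was seen at the neighbouring intronic Cavin1 site chr11:100960549-100961167, which had 16 fragments of both kinds in ES and 0 in the other stages, with pDONR levels of 7.77, 2.57, 4.08, 4.24 and 1.17. The most covered base of this site lay under 6 distinct fragments. The 300 bases around the most covered base of the Stat3 and Cavin1 intron sites that lacked ES fragments are given on the plus strand. These sites were picked for the most positive fragments among distal chromosome 11 member sites without ES fragments and among those without ES or HB fragments. Capitals mark a GATA and an ETS motif in the Stat3 site and a RUNX and a GATA motif in the Cavin1 site, on either strand.
Stat3 intron, chr11:100891648-100891947: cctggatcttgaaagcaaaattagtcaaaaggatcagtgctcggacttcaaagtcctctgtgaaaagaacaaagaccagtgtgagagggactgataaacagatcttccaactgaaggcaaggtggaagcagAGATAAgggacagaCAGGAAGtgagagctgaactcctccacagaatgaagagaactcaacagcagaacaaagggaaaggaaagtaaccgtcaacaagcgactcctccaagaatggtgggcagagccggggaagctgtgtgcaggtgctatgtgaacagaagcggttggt
Cavin1 intron, chr11:100965829-100966128: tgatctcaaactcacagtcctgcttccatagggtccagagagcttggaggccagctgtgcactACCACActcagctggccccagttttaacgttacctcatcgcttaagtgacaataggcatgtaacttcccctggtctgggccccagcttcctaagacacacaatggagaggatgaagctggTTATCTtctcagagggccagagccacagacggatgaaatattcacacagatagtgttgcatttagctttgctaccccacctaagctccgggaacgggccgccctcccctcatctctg

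**Figure D2:**
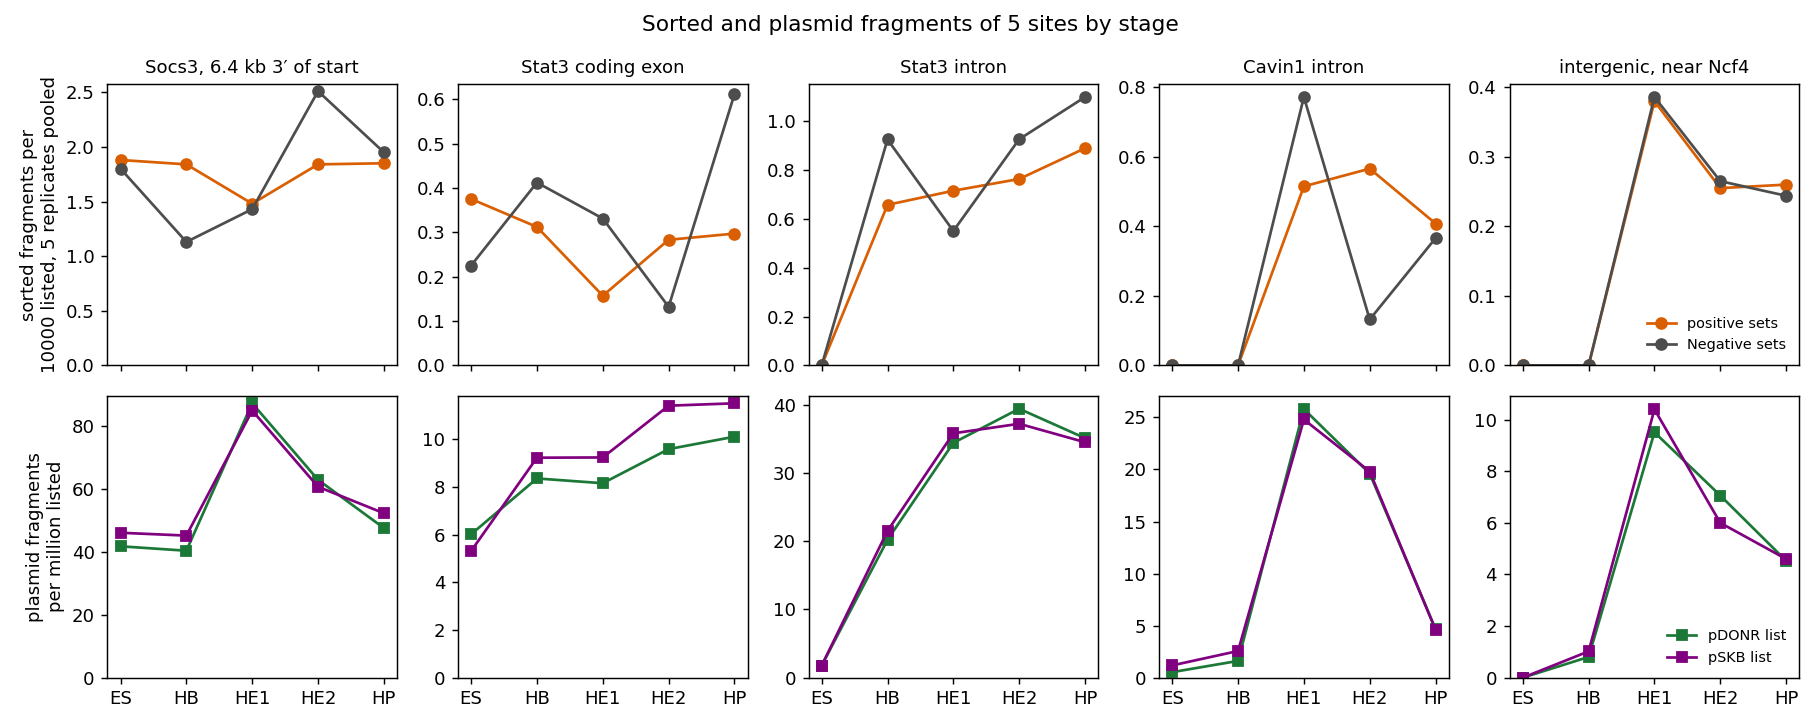
Fragments at selected member sites by stage, positive and Negative, beside the plasmid level there. The Stat3 intron, Cavin1 intron and Ncf4 side sites have 0 fragments in ES in both gates, while the Socs3 downstream site has fragments at all stages.

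The start of Stat3 was nearly empty of sorted fragments although it was well represented in the plasmids. Within 1.5 kb of chr11:100939540 the pSKB lists held 680 fragments and the sorted lists 13 distinct ones, 0.0191 per pSKB fragment, and only 1.26% of the 11072 starts had a lower ratio. The sorted fragments lay in 2 sites on the flanks of the start, chr11:100939134-100939408 with 5 positive and 0 Negative fragments and chr11:100939742-100940109 with 12 and 6. The bases between them were covered by fragments of an HM-1 control library, chr11:100939420-100939663 with 125 reads and chr11:100939573-100939739 with 15 reads. The pSKB fragments over those intervals numbered 524 and 421, and the sorted fragments 0.

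The same held across the genome, so the gap at Stat3 was not particular to it. Of 4195 HM-1 control fragments with at least 2 reads, 4195 overlapped no sorted fragment, and 1016 of these had at least 100 pSKB fragments over them. Of 3253 control fragments with 1 read and at least 100 pSKB fragments, 315 (9.68%) overlapped none. Per the study's methods fragments found in the HM-1 controls were filtered out, and the sorted lists hold no value for the bases under control fragments of at least 2 reads, those at the Stat3 start included. Outside the control fragments the Stat3 start had 0.117 sorted fragments per pSKB fragment, from 111 pSKB fragments. At Socs3 a control fragment with 733 reads, chr11:117969850-117970057, covered the start of the longer non-coding transcript, and the ratio was 0.249 with and 0.317 without the bases under control fragments. Another control fragment, chr11:100891339-100891413 with 36 reads, ended just before the Stat3 intron site. Il6ra and Il6st had ratios of 0.195 and 0.312 and no control fragment of at least 2 reads within 1.5 kb of the start.

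**Figure D3:**
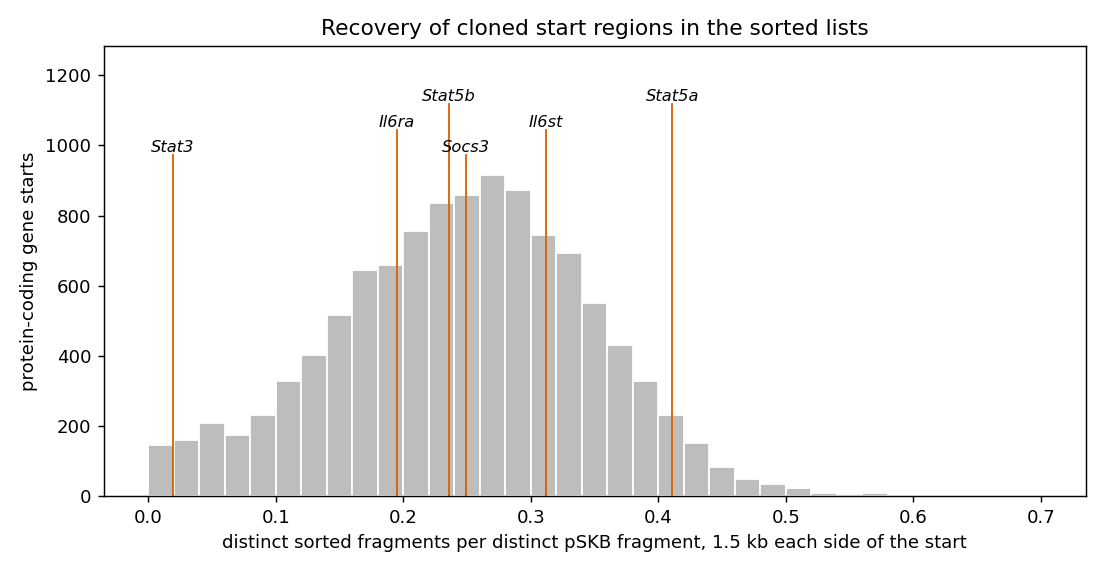
Distribution over 11072 transcription starts of distinct sorted fragments per pSKB fragment within 1.5 kb, with the members that have at least 100 pSKB fragments marked. Stat3 lies at 0.0191 in the low tail and Stat5a at 0.411 in the upper part, and the others lie between 0.195 and 0.312.

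**Figure D4:**
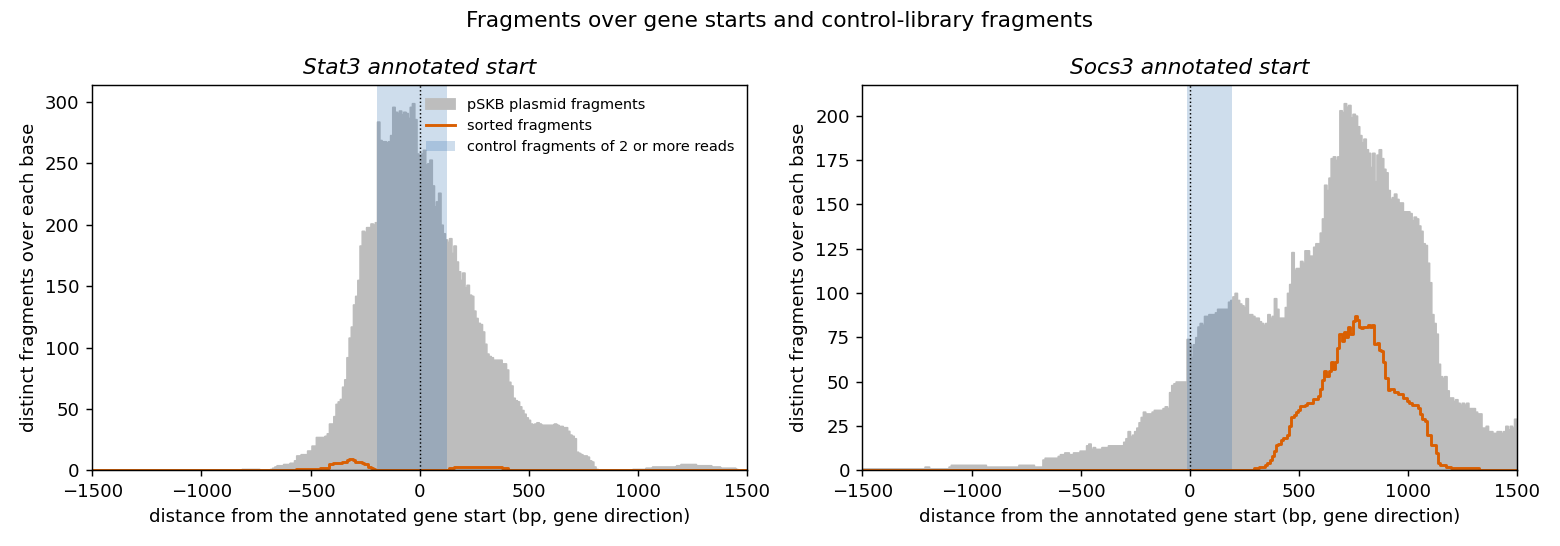
Plasmid (pSKB) and sorted fragments over each base near the starts of Stat3 and Socs3, by distance from the start in bases, with HM-1 control fragments of at least 2 reads shaded. Sorted coverage is 0 under the shaded stretches, while plasmid fragments cover them. It is also 0 beyond them, at Socs3 from -1500 to -20 and from 200 to 290 bases, where plasmid coverage reaches 50 and 100.

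Socs3 had the site with the most fragments of all member windows, and it was not at the start. It lay downstream of the gene, intergenic at chr11:117963153-117964076 and 6.43 kb from the annotated start, and had more positive fragments than 99.5% of all sites. Positive fragments in replicates 1 to 5 were 20, 23, 2, 0 and 0 in ES, 28, 18, 7, 0 and 0 in HB, 32, 33, 0, 1 and 0 in HE1, 37, 20, 6, 1 and 1 in HE2, and 40, 9, 0, 0 and 1 in HP. These 279 positive fragments came from 17 of 25 sets, and 88 Negative fragments from 15 of 25. They were 202 distinct fragments, and 21 of them were listed in both gates of the same stage and replicate. The pDONR level was 41.7, 40.3, 87.1, 62.8 and 47.5 fragments per 1000000 from ES to HP.

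The Socs3 start site, chr11:117968723-117969750 overlapping an untranslated region of the minus-strand gene, had 211 positive and 84 Negative fragments, with 26, 39, 65, 53 and 28 positive ones from ES to HP. Another site, chr11:117939461-117940454, intergenic and 30.1 kb from the start, had 103 and 29 (positive 13, 8, 30, 28 and 24). The Socs3 window also held the promoter of Pgs1, a gene of phospholipid synthesis, with 61 positive and 17 Negative fragments. Stage was called at none of the first 3 sites by edgeR or limma. The region before the RefSeq start of Socs3 held TTCTTAGAA, 154 bases upstream, shown in capitals on the minus strand. This region lies inside the GENCODE gene body, downstream of the annotated start used for the distances above. It is given because the STAT letters stand in it and 82 distinct sorted and 257 pSKB fragments overlap it.
Socs3 upstream, minus strand, chr11:117969367-117969616: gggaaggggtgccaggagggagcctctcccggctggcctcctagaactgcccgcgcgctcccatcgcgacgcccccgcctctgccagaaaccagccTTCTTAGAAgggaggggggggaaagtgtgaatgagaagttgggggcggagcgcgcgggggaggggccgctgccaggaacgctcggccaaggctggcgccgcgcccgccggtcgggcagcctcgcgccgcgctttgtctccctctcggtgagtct

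Motif letters were searched on both strands in 300 bases around the most covered base of every site, and matches of different motifs could overlap. TTCNNNGAA was found in 12 of 110 distal member sites (10.9%, against 9.07% of all distal sites) and in 4 of 36 promoter sites (11.1%, against 5.14%). The AP-1 motif TGANTCA was found in 10.0% of distal member sites (16.6% of all). The RUNX motif TGTGGT was found in 24.5% (25.7%), the GATA motif AGATAA in 16.4% (18.5%) and the ETS motif CNGGAAG in 40.9% (36.6%). In promoter sites the GATA motif was found in 16.7% of members (5.04% of all), the RUNX motif in 2.78% (2149 of 17849 in all), the AP-1 motif in 5.56% (5.36%) and the ETS motif in 38.9% (37.4%). Of the 7 members matched to a RefSeq promoter (GRCm38.p6, 250 bases before to 50 after the start), TTCNNNGAA occurred in Csf2rb2 and Socs3, and it occurred in 8.3% of 32851 promoters.

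Most member sites were found in both positive and Negative sets. Of the 146 sites, 143 had a positive fragment, and 108 of those (75.5%) also had a Negative fragment, against 64.6% over all sites. The positive fragments of 105 sites came from at least 2 replicates, and 28 sites (19.2%, against 25.5% of all) rested on a single positive fragment. All 5 stages were present at 39 sites (26.7%, against 22.3%). The median member site had 8 positive fragments and the median of all sites 4, and sites with more fragments are more easily found in both gates and at all stages.

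Sites missing at a stage were counted where at least 5 fragments were expected there. The number expected came from the site's total and the sizes of the lists, with a fragment counted in each set that listed it. Of 243 such pairs of member site and stage, 29 had 0 fragments in both gates (11.9%, against 7.03% of 89735 pairs over all sites). By stage they were 12 of 42 in ES (28.6%, against 13.0%), 8 of 50 in HB (16.0%, against 10.5%), 6 of 57 in HE1 (10.5%, against 5.39%), 1 of 49 in HE2 (2.04%, against 2.07%) and 2 of 45 in HP (4.44%, against 5.27%). The pairs fell on 21 sites, 17 of them distal, and among the stages with at least 5 expected the missing ones were ES at 6 sites, ES and HB at 6 and HE1 at 6. Stages with fewer expected fragments could be empty too, as at the Cavin1 site found in ES only. Without the 4 HE1 libraries that shared fragments the count was 22 of 221 (9.95%, against 6.35%). Neighbouring sites are not independent, and no test was made of these shares.

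In ES and HB the missing sites had, at the median, a lower level in that stage's plasmid list relative to the other stages' lists than the sites present. The pDONR level at the stage over the mean of the other stages had a median of 0.114 at member sites missing in ES, against 0.777 at those present, and of 0.193 against 0.904 in HB. In HE1 the medians were 1.01 and 1.13, and the 6 sites missing there ranged from 0.39 to 1.31. Sorted fragments matched the plasmid lists of all stages, and the largest share was that of the HE2 list in HB and that of the HE1 list at every other stage, HE1 (38.6%) included. Of 256307 distinct fragments sorted from ES, 33.2% were identical to a fragment of the HE1 pDONR list and 11.4% to one of the ES list. In HP the shares were 33.3% for HE1 and 8.33% for HP, and the HE1 list was the longest, with 8832923 fragments. Whether the authors kept only fragments within the peaks of the stage of the sorted cells is not stated in the labels or methods, and its part in the missing stages was not tested.

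Merged sites were also tested. Between stages in positive sets limma called 3 of 29715 sites (0.0101%) and 0 of the 70 member sites tested, with 1207 sites (4.06%) and 4 members at an unadjusted p under 0.05. EdgeR called 4680 (15.7%) and 18 of the 70 member sites (25.7%). Of those 18, 17 had 0 positive fragments in at least 1 stage, and the remaining site, at the Rab5c promoter, had 1 in ES and 1 in HB. A site empty at some stages passed the filter only through the others, so these calls restate the missing stages, and the lowest adjusted limma p of a member site was 0.916. Between positive and Negative sets limma called 0 of 22805 sites (0%), with 219 sites and 0 of 59 members at an unadjusted p under 0.05, and edgeR called 1 (0.00439%), which was no member site. Limma called 0 of 17338 sites between stages in the Negative sets (0%), with 482 sites and 0 of 46 members at an unadjusted p under 0.05, and edgeR called 74 (0.427%) and 0 members.

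The plasmid lists held all member windows at every stage. The pDONR level of the Stat3 window was 300, 389, 478, 493 and 486 fragments per 1000000 from ES to HP, that of Csf2rb2 80.4, 88.3, 113, 110 and 113, and that of Socs3 595, 478, 612, 594 and 559. Each stage had 1 pDONR list, so these differences have no replicate check. Of the 146 sites 146 had a pDONR fragment and 144 a pSKB fragment.

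Beyond the members, 38 other genes of the same pathways (ligands, other receptor chains, kinases, other STAT and SOCS genes and PIAS inhibitors) had windows. Limma called 0 of them between stages or between gates (0.0685% and 0% of all windows). Their median stage range was 0.86 on the log2 scale (0.78 over all windows), and their median positive minus Negative difference was 0.21 (0.15 over all). EdgeR called 2 of the 38 between stages (6.45% of all windows), Csf2ra, the alpha chain of the GM-CSF receptor, with a range of 3.21 and an adjusted p of 6.1e-13, and Pias1, of the PIAS inhibitor family, with 2.31 and 2.8e-16. By Pearson correlation of log2 levels over the 50 sets, the window most like Il6ra was that of Spryd7 (0.85), the one most like Socs3 that of Sort1 (0.81) and the one most like Stat3 that of Rilp (0.73). These sets share library size, in which small sets with 0 fragments weigh heavily, and the correlations are descriptions only.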

How the data were processed

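The deposited sorted lists, processed by the authors with Trim Galore, Bowtie2, SAMtools, bedtools and HOMER on mm10 per the labels and the study's methods, hold coordinates of distinct fragments (distal and promoter lists) that passed a mapping filter, removal of duplicates and filters against the HM-1 controls, the plasmid fragments and accessible peaks. The plasmid and control lists deposited by the authors give a read count per fragment. Libraries combine 2 rounds of sequencing. Once sorted starts were shifted by 1 base, 83.5% of the 2288814 listed fragments had an identical plasmid fragment. Genes and coordinates are those of GENCODE, and promoter sequences are RefSeq's. Some sequences are not reported here.

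Fragments per 10000 were tested as log2(value + 1) with limma 3.58.1 (lmFit, and eBayes with a trend) over all windows or merged sites with a fragment in at least 1 in 5 sets (4 of 10 within a stage), adjusted by Benjamini-Hochberg over all of them. EdgeR 4.0.16 (quasi-likelihood, TMM) on the numbers of fragments was an alternative. Fold changes on this scale understate those of low windows. The scripts were tested on simulated data. Sites named were the start site and the 3 others in most positive sets per member, those missing at a stage, and the neighbours stated as chosen later. The members and lists were chosen with earlier results of these data known. Alternatives were the added constant, the filter, the replicate as a block, replicates 1 and 2 alone, fragments identical to a plasmid fragment, distal fragments, a 50 kb flank, and leaving out each replicate or the 4 HE1 libraries.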

Additional observations from a re-analysis of the deposited data

Results flagged for a closer look

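Of 80 groups of 5 replicates (8 windows, 5 stages, positive or Negative sets), 13 (16.2%) held a replicate whose distance to the nearest other value was a large part of the group's range. The cut-off is passed about 1 time in 20 by 5 normal values of equal spread. These sets differ widely in size and overlapping windows share fragments, so 1 in 20 is not their chance rate. All 13 lay in replicates 3 to 5, 9 of them in replicate 5, and 10 rested on 2 or fewer fragments. Values are fragments per 10000 listed. In ES positive replicate 5, of 2186 fragments, Csf2rb and Csf2rb2 stood at 4.57 from 1 fragment each, and Stat5a and Stat5b at 0 as the lowest values. In HB positive replicate 5, Socs3 and Stat5a stood at 10.8 from 2 fragments each. In HE1, Stat5a stood at 11.3 in positive replicate 5 (3 fragments) and Stat5b at 0 in Negative replicate 4. In HP positive replicate 3, Stat3 and Stat5a stood at 30.3 from 7 fragments of 2309, which their overlapping windows share. In Negative sets, Stat3 stood at 11.3 in ES replicate 5 from 1 fragment and at 24.4 in HP replicate 5 from 2, and Socs3 at 27.8 in HE2 replicate 3 from 2 of 720.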

How the results depend on the processing

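No member window was called in any comparison under any setting, leave-one-out settings included (0 to 0 members for every comparison). Calls at member sites moved: 18 were called between stages in positive sets by edgeR and 25 of 105 with replicates 1 and 2 only (9238 of 49457 over all sites), where limma over 5 replicates called 0 of 70, and 7 of 76 were called in the Negative sets with replicates 1 and 2 only (1099 of 31920 over all sites), a fit added after the data were seen. Over all windows the stage count was 13 in limma, 1223 in edgeR, 1287 with replicates 1 and 2 only, 39 for distal fragments, 0 without any one of replicates 1 to 4 and 27 without replicate 5. Over all sites it was 3, 4680 and 9238 in limma, edgeR and replicates 1 and 2 only. The cause was not tested.

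Of the member values recomputed (stage ranges and gate differences, log2 scale), 406 kept their sign. These include every stage range, which is a highest minus a lowest value and cannot turn below 0. Among the gate differences, 26 turned below 0. With replicates 1 and 2 only it was -0.10 for Csf2rb, -0.06 for Csf2rb2, -0.0026 for Il6ra, -0.17 for Il6st, -0.07 for Stat5a, -0.10 for Stat5b, -0.06 for Stat3, -0.07 for Socs3 and, in HP, -0.11 for Csf2rb2. In edgeR it was -0.17 for Csf2rb, -0.03 for Csf2rb2, -0.12 for Il6st, -0.05 for Stat5a, -0.10 for Stat5b, -0.03 for Stat3 and -0.10 for Socs3. With distal fragments only it was -0.11 for Stat5a, -0.32 for Stat5b and -0.10 for Stat3, and with fragments identical to a plasmid fragment -0.0011 for Stat3. Without replicate 3 it was -0.08 for Stat5a, -0.03 for Stat5b and -0.21 for Stat3, without replicate 4 -0.27 for Stat5b, and without replicate 5 -0.09 for Csf2rb and -0.29 for Socs3. Leaving out 1 replicate at a time gave -0.09 to 0.22 for Csf2rb, -0.08 to 0.17 for Stat5a, -0.27 to 0.35 for Stat5b, -0.21 to 0.17 for Stat3 and -0.29 to 0.66 for Socs3.

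Same-numbered replicates did not all deviate together (correlations of 0.52, 0.51, 0.099, 0.52 and 0.4 for replicates 1 to 5 across stages), and replicates 1 and 2 correlated best with each other's number. With the replicate number as a block 0 member windows and 0 member sites were called, and 12 windows and 3 sites were called between stages in positive sets. The gate differences across stages (0.68 for Il6ra, 0.41 for Csf2rb2) cannot change with the block, since each replicate has 1 positive and 1 Negative mean. Their p-values can. In that comparison 1320 windows (7.07%) and 2 members had an unadjusted limma p under 0.05 with the block, against 194 windows and 0 members without it. Depth limits the small replicates, in which 1 fragment moves a window by several per 10000, and distinct fragments carry no measure of reporter strength.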
